A study of Mus musculus with 48 samples.

Results

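31 genes for collagens and other structural proteins of the extracellular matrix were followed across 8 mouse breast tumour lines in culture and in myeloid cells sorted from 4 tumours. The genes were taken by symbol from a deposited table of read counts for 24054 gene symbols, and all 31 have a line in it. The lines were PyMT-N, PyMT-M, AT3 and E0771, labelled C57BL/6, and 4T1, 67NR, 2208L and T11, labelled BALB/C, with 3 libraries each. They were grown at passage 14 (PyMT-N), 7 (PyMT-M), 15 (AT3), 14 (E0771), 19 (67NR) and 15 to 20 (4T1, 2208L and T11), in DMEM with serum apart from E0771, which was grown in RPMI. Macrophages (Ly6G- Ly6C- F4/80+) and neutrophils (Ly6G+ with medium to low Ly6C) were sorted as live CD45+ CD11b+ cells from dissociated 2208L, T11, AT3 and E0771 tumours, 3 libraries of each per tumour. E0771 macrophage library 1 and E0771 neutrophil library 1 carry the label BALB/C, against C57BL/6 for the other E0771 and AT3 libraries. The authors' column names add the suffix Epi to PyMT-N, 4T1, 2208L and AT3 and Mes to PyMT-M, 67NR, T11 and E0771. The sources used here do not say whether the libraries of a group came from separate cultures or animals, so p-values measure the spread between these libraries, which may be technical.

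Fibrillar collagens (types I, III and V) are secreted as procollagens, trimmed by proteases and assembled into the fibres of connective tissue, while type IV collagen forms the network of basement membranes and type VI collagen beaded microfibrils between fibres and basement membrane. Small leucine-rich proteoglycans coat the fibrils, lysyl oxidases crosslink them, and matricellular proteins such as tenascin C and SPARC tune how cells hold on to them. In breast tumours most fibrillar collagen is known to come from fibroblasts, and epithelial cells contribute mainly to the basement membrane. Carcinoma lines that have taken on mesenchymal traits can make fibrillar collagen themselves.

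The stretch around the transcription start is shown first for 4 members that the results below return to. Col4a1 and Col4a2, the chains of type IV collagen, lie head to head on chromosome 8 and were above background in all 8 lines. Col1a2, a type I chain, was above background in T11 cells alone, and Col6a1, a type VI chain, in 4 lines. Each run is the RefSeq promoter window of GRCm38.p6 (mm10), 250 bases before and 50 after the annotated start, written 5' to 3' along the gene's strand, with CCAAT boxes on either strand in capitals.
Col4a1: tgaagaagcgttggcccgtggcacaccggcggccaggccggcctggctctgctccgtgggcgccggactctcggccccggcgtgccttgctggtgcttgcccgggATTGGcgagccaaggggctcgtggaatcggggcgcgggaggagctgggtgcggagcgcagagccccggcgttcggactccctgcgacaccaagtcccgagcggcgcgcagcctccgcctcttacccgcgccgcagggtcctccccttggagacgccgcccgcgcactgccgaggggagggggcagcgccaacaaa
Col4a2: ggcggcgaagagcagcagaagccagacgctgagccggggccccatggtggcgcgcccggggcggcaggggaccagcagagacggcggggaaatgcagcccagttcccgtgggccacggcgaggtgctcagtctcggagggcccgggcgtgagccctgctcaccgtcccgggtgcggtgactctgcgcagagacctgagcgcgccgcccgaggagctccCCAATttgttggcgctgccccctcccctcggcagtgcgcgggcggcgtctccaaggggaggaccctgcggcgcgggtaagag
Col1a2: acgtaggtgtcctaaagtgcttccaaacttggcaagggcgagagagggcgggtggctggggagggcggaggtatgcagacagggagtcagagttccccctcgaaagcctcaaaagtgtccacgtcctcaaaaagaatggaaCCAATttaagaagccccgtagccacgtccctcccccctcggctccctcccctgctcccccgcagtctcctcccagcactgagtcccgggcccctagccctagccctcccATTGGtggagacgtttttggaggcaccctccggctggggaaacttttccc
Col6a1: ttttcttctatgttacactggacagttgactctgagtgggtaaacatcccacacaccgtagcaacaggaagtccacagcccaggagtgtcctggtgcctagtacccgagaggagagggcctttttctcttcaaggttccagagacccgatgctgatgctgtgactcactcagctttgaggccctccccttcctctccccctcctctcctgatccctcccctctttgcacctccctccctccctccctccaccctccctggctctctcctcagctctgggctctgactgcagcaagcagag
The windows are chr8:11312777-11313076 (minus strand) for Col4a1, chr8:11312555-11312854 (plus) for Col4a2, chr6:4505368-4505667 (plus) for Col1a2 and chr10:76725995-76726294 (minus) for Col6a1. The Col4a1 and Col4a2 windows share 78 bases, their starts are 21 bases apart, and their GC content is 74.0% and 73.7%, against 61.0% for Col1a2 and 57.3% for Col6a1. Col4a1 and Col4a2 each hold 1 CCAAT, Col1a2 holds 2, and Col6a1 holds none and no GGGCGG. Of 31 members, 22 had a window in the table, 27 windows in all. CCAAT on either strand stood in 10 of the 27 and in 37.4% of all 32851 windows, TATAAA in 5 and 13.6%, and GGGCGG in 17 and 35.7%.

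Total counts ran from 2058329 to 6262942 in line libraries, 1862321 to 6240372 in macrophage libraries and 669862 to 3341097 in neutrophil libraries. Levels are given as CPM, which leaves out the counts of Rn45s, the ribosomal RNA precursor. Rn45s took 3.88% to 14.9% of counts in lines, 55.0% to 76.2% in macrophages and 26.8% to 70.3% in neutrophils. Background was read from 1433 odorant and pheromone receptor genes, which few tissues use. Together they took 613 to 2948 CPM in lines, 864 to 3235 in macrophages and 3836 to 18795 in neutrophils. A member is called above background in a group where its mean count per base of transcript was at least 10 times that of these genes per coding base. Among 50 genes of other tissues chosen as silent, 0 of 400 gene and group values in lines reached this, 2 of 200 in macrophages and 0 of 200 in neutrophils. Epithelial markers were above background, 8 of 8, in PyMT-N, 4T1 and 2208L cells, and 0 or 1 of 8 in the other lines. AT3 is named Epi and had 88.4 CPM over that list, against 179 CPM in E0771. Leukocyte markers summed to group averages of 22.4 to 203 CPM in the lines and 2886 to 10663 CPM in sorted cells, where T11 neutrophils had 4 of 6 above background, without Ptprc and Itgam.

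Across the 8 lines all 31 members differed between lines (edgeR F test with Benjamini-Hochberg adjustment), where 87.8% of 18348 genes tested did. 27 members were above background in at least 1 line, all but Lum, Fmod, Eln and Lox. T11 cells had 17 members above background, PyMT-M 15, AT3 and E0771 12 each, PyMT-N 9, 67NR 8, and 4T1 and 2208L 7 each. The mark differed in CPM between lines, as receptor genes averaged 723 CPM in PyMT-N and 2577 CPM in 4T1. Pcolce, for example, was above it in PyMT-N at 14.9, 13.8 and 14.8 CPM. In 4T1 Pcolce was below it at 15.5, 13.2 and 14.9 CPM. The numbers of members therefore do not rank the lines by CPM. Col4a1 and Col4a2 were the members above background in all 8 lines. The summed level did not follow the number of members: it was 5962 ± 414 CPM in PyMT-N cells (SD, n = 3), where Fbln2 and Tnc made up 39.8% and 38.2% of it, and 3148 ± 292 CPM in PyMT-M. The sum was 2037 ± 130 CPM in 4T1 and 2297 ± 14.2 in 67NR, 1437 ± 84.6 in 2208L and 3353 ± 69.5 in T11, and 3902 ± 203 in AT3 and 2975 ± 64.1 in E0771. In AT3 cells Col3a1 alone was 37.9% of it.

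**Figure D1:**
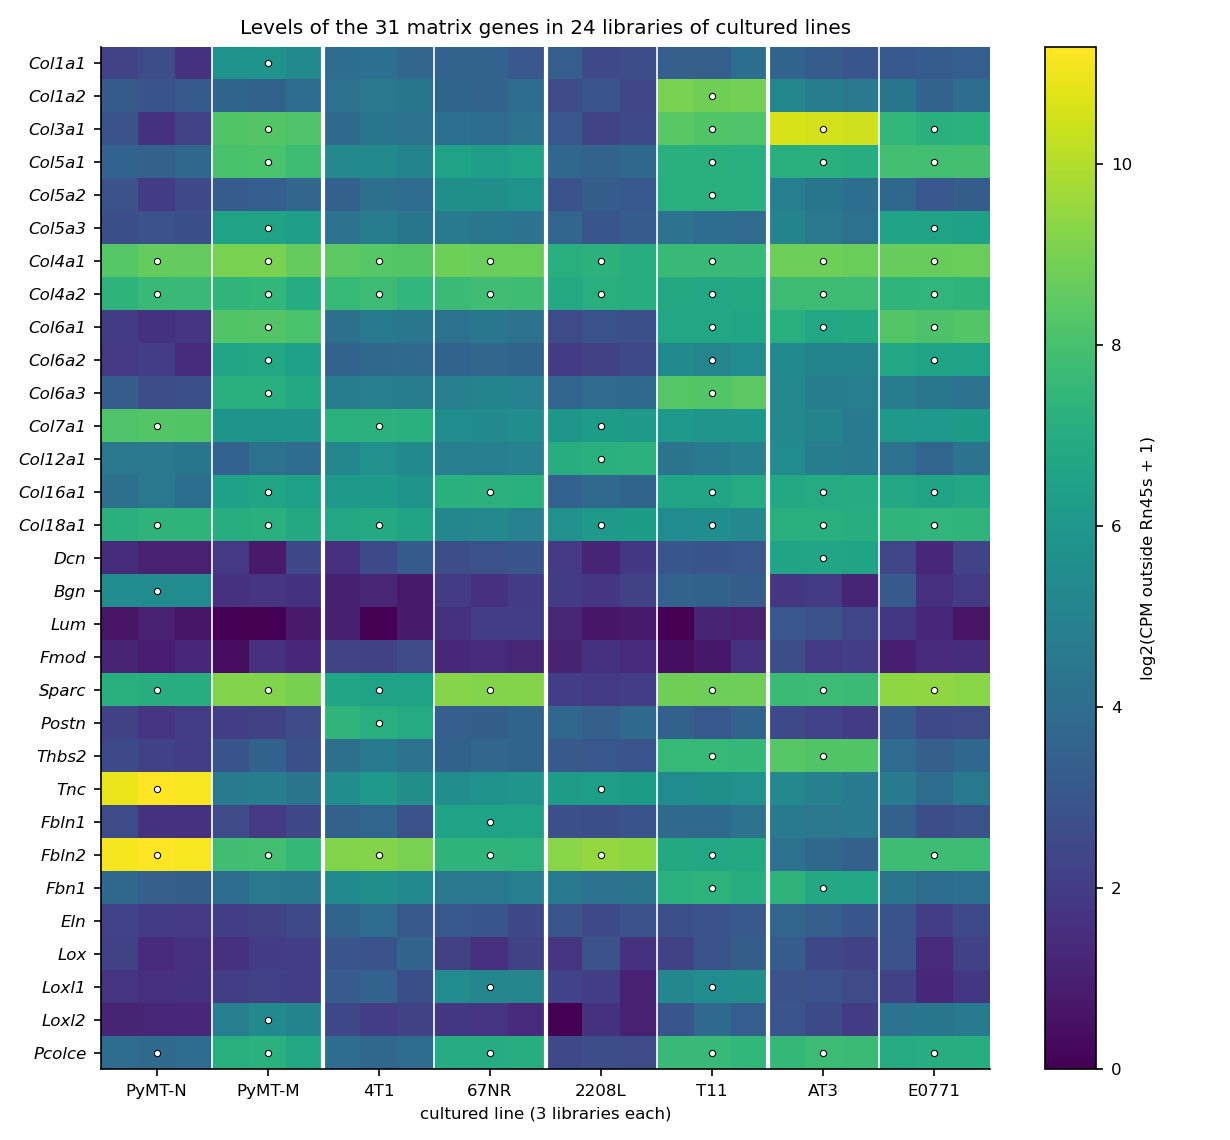
Heat map of the 31 matrix genes (rows, ordered by role) in the 24 libraries of cultured lines (columns, 3 per line), coloured by log2(CPM outside Rn45s + 1). White dots mark lines in which the member's mean was at least 10 times the receptor genes per base: 17 dots in T11 and 7 in 4T1 and in 2208L, with Col4a1 and Col4a2 dotted in every line.

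Fibrillar collagens were unevenly spread over the lines, and no line had all 6 chains above background. Col3a1, the chain of type III collagen (chr1:45311538-45349706, plus strand), was highest in AT3 at 1478 ± 80.9 CPM. It followed at 307 ± 23.8 CPM in T11 and 297 ± 8.21 in PyMT-M, whose library ranges overlapped, then at 156 ± 17.2 in E0771, and at 4.13 to 17.1 CPM in the other 4 lines. Col5a1, a type V chain that starts fibril assembly, was 249 ± 31.1 CPM in PyMT-M and 239 ± 8.14 in E0771, also overlapping, 141 ± 4.23 in T11 and 134 ± 3.40 in AT3. Its partner Col5a2 was above background in T11 cells alone, at 139 ± 5.24 CPM, and Col5a3 in PyMT-M (86.4 ± 6.80) and E0771 (90.9 ± 3.18).

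Type I collagen, the main fibre protein of connective tissue, is a trimer of Col1a1 and Col1a2 products. Col1a1 (chr11:94936224-94953042) was above background only in PyMT-M cells, with 55.4, 56.6 and 40.4 CPM. The highest library of any other line had 16.3 CPM. Col1a2 (chr6:4504814-4541544) was above background only in T11 cells, with 513, 453 and 484 CPM, while the highest library of any other line, an AT3 library, had 36.3 CPM. Per base of transcript the Col1a1 level was lower than that of Col1a2 by 5.56 ± 0.42 log2 in T11 (mean of the log2 ratio -5.56, SD, n = 3) and higher by 1.89 ± 0.53 in PyMT-M. In the other 6 lines both chains were below the background mark, and their log2 ratios of -1.78 to 0.11 compare values near background.

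Transcripts of both type IV chains were above background in every line. Col4a1 (chr8:11198423-11312826, minus strand) ranged from 138 ± 10.6 CPM in 2208L to 477 ± 69.2 in PyMT-M, and Col4a2 (chr8:11312805-11449287, plus strand) from 112 ± 4.98 in T11 to 219 ± 9.69 in 67NR. Of all members Col4a2 had the smallest range over line means, 0.96 log2. Their ratio per base was not fixed: Col4a1 over Col4a2 was 1.58 ± 0.06 log2 in PyMT-M, 1.27 ± 0.08 in E0771 and 0.07 ± 0.10 in 2208L, with 0.71 to 0.99 in the other 5 lines. The genes overlap by 22 bases on opposite strands, and the counting is not stated to use strand.

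Type VI collagen is built from Col6a1, Col6a2 and Col6a3 chains. Col6a1 and Col6a2, on the same strand of chromosome 10 with starts 102538 bases apart, moved together: their log2 ratio per base was 1.77 ± 0.05 in PyMT-M, 1.61 ± 0.18 in T11, 1.92 ± 0.09 in AT3 and 1.81 ± 0.13 in E0771, the 4 lines with Col6a1 above background. Col6a3, on chromosome 1, did not keep step with Col6a1. Its log2 ratio to Col6a1 per base was 0.33 ± 0.12 in T11, -2.50 ± 0.05 in PyMT-M, -3.27 ± 0.18 in AT3 and -5.07 ± 0.24 in E0771. E0771 cells thus had 309, 283 and 305 CPM of Col6a1 and 26.9, 20.8 and 18.9 CPM of Col6a3, the last below the background mark. Both Col6a2 and Col6a3 were below the mark in AT3. Col3a1 and Col5a2, neighbours on chromosome 1 with 24614 bases between them, also parted: their log2 ratio per base was 6.42 ± 0.34 in AT3, 5.16 ± 0.32 in PyMT-M, 4.28 ± 0.27 in E0771 and 1.40 ± 0.14 in T11. Col5a2 was below the background mark in AT3, PyMT-M and E0771, so the ratios there have a denominator near background.

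**Figure D2:**
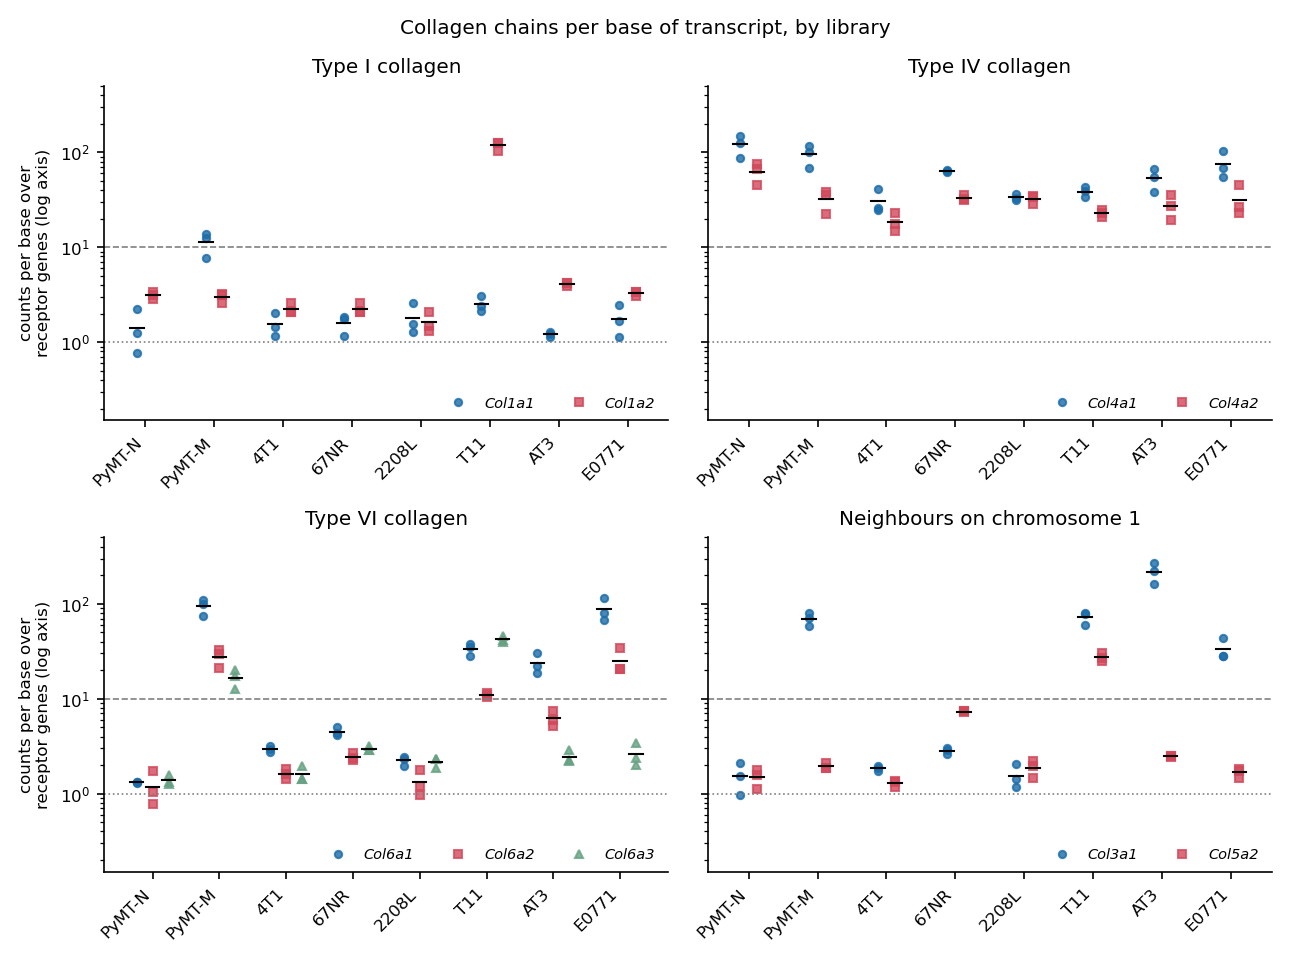
Levels of collagen chains that form 1 protein or lie side by side, as counts per base of transcript over those of receptor genes (log axis), for each line. Points are libraries, black bars the mean of 3, the dashed line 10 times the receptor genes and the dotted line their level. By mean, Col1a2 lies above the dashed line in T11 alone and Col1a1 in PyMT-M alone, where library 3 lies below it at 7.735 times. Both type IV chains lie above it in every line.

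The other collagens were Col7a1, which makes the anchoring fibrils of epithelia, Col12a1 and Col16a1, which sit on fibril surfaces, and Col18a1, a basement membrane proteoglycan. Col7a1 was highest in PyMT-N at 299.6 ± 9.12 CPM, then 4T1 at 149 ± 5.14, and 31.8 to 68.7 in the rest. Col12a1 was above background in 2208L alone, at 140 ± 10.8 CPM. Col16a1 reached 146 ± 4.23 CPM in 67NR and was lowest in 2208L and PyMT-N, at 12 ± 1.56 and 18.2 ± 2.84. Col18a1 was above background in every line apart from 67NR, from 42.0 ± 3.21 CPM in T11 to 170.2 ± 3.26 in E0771.

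The proteoglycans were sparse. Decorin (Dcn) was above background in AT3 alone, at 96.6 ± 1.79 CPM, and biglycan (Bgn) in PyMT-N alone, at 42.6 ± 0.27, each with the highest library of any other line at 8.2 and 10.7 CPM. Lumican (Lum) was at most 7.44 CPM and fibromodulin (Fmod) at most 5.27 CPM in any line library. Among elastic fibre genes Fbln2, a fibulin of microfibrils and basement membranes, was above background in 7 lines, all but AT3, from 112 ± 6.07 CPM in T11 to 2374 ± 130 in PyMT-N. Fbn1, the microfibril protein fibrillin 1, was above background in T11 (144 ± 13.3) and AT3 (128 ± 29.4), and Fbln1 in 67NR (90.4 ± 1.25). Eln, the elastin precursor, was 3.16 to 11.4 CPM, no line being above background. Of the crosslinking enzymes, Lox stayed at 2.39 to 8.11 CPM, Loxl1 was above background in T11 (41.8 ± 4.98) and 67NR (37.8 ± 4.33) and Loxl2 in PyMT-M (33.2 ± 6.53). Pcolce, which helps cut the procollagen end piece, was 128 to 201 CPM in PyMT-M, 67NR, T11, AT3 and E0771, and 5.04 to 14.5 CPM in PyMT-N, 4T1 and 2208L.

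PyMT-N cells, set against PyMT-M cells, had little RNA of type III, V and VI collagen chains and very high RNA of tenascin C and fibulin 2. 7 members were higher in PyMT-N and 14 lower, where 24.8% and 19.9% of all genes were (44.7% in either direction), and 10 did not pass. The median log2 difference of the members was -0.35, against -0.05 for all genes. Tnc, a matricellular protein of wounds and tumour edges (chr4:63959785-64047015), had 2020, 2455 and 2357 CPM in the PyMT-N libraries, against 25, 26.6 and 19.3 CPM in PyMT-M libraries. Its log2 difference was 6.89 ± 0.13 (SE, edgeR adjusted p = 1.94e-59). Fbln2 had 2252, 2510 and 2359 CPM in the PyMT-N libraries, against 227, 234 and 180 CPM in PyMT-M libraries (3.78 ± 0.10, edgeR adjusted p = 1.58e-49). For both genes every PyMT-N library was above every library of the other 7 lines. Bgn (4.58 ± 0.25), Col7a1 (2.72 ± 0.10), Col12a1 (0.83 ± 0.18), Col18a1 (0.57 ± 0.10) and Col4a2 (0.53 ± 0.10) were the other members that rose.

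On the lower side Col6a1 had 2.99, 2.12 and 2.49 CPM in the PyMT-N libraries, against 300.3, 310.5 and 270.3 CPM in PyMT-M libraries (-6.51 ± 0.15, edgeR adjusted p = 6.49e-53). The groups were far apart, and PyMT-N stood at the receptor genes' level, 1.32 times it per base. Col6a2 had 2.64, 3.17 and 1.66 CPM in PyMT-N libraries, against 102, 106 and 86.6 CPM in PyMT-M libraries (-5.00 ± 0.18, edgeR adjusted p = 1.64e-40). Col3a1 (-5.77 ± 0.15), Loxl2 (-4.29 ± 0.29), Col5a1 (-4.14 ± 0.13), Col6a3 (-3.94 ± 0.14), Col5a3 (-3.60 ± 0.16) and Col1a1 (-3.46 ± 0.22) fell too. Pcolce, Col16a1, Sparc, Col5a2, Thbs2 and Fbn1 fell by 2.85, 2.03, 1.75, 0.70, 0.61 and 0.53 log2, the last 3 from levels below the background mark in both lines and not passing without some library. Col4a1 did not pass, at -0.09 ± 0.09.

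4T1 cells, from the same original tumour as 67NR cells, had more periostin RNA and less RNA of SPARC, Pcolce and fibulin 1. 9 members were higher in 4T1 and 12 lower, where 19.9% and 27.3% of all genes were (47.2% in either direction), 10 did not pass, and the members' median was -0.18, against 0.03. The split was 12 higher and 10 lower when scaled to total counts and 4 and 15 when scaled to receptor genes. Fbln1, a fibulin of basement membranes and elastic fibres (chr15:85205949-85286535), had 9.97, 11.9 and 5.96 CPM in 4T1 and 89.2, 91.7 and 90.3 in 67NR, a log2 difference of -3.56 ± 0.17 (edgeR adjusted p = 7.21e-31). Pcolce had 15.5, 13.2 and 14.9 CPM in 4T1 and 126, 128 and 131 in 67NR (-3.39 ± 0.15, edgeR adjusted p = 9.71e-34). The libraries of these lines lay far apart for both genes. Sparc, a collagen-binding glycoprotein, fell by 2.89 and Loxl1 by 2.48 log2. Postn, a matricellular protein that binds collagen (chr3:54361109-54391037), had 168, 134 and 124 CPM in 4T1 and 9.65, 8.96 and 11.3 in 67NR (3.57 ± 0.15, edgeR adjusted p = 3.74e-35). Fbln2, Col7a1 and Col18a1 were higher by 1.54 ± 0.09, 1.53 ± 0.10 and 1.29 ± 0.12.
Col5a1 and Col5a2 fell by 1.47 and 2.04 log2, while Col3a1 (-0.18 ± 0.18), Col1a1 (0.32 ± 0.24) and Col5a3 (-0.26 ± 0.17) did not pass, all 5 being below the background mark in both lines. Col1a2 passed at 0.43 ± 0.18 (edgeR adjusted p = 0.0472), and was -0.0022 when scaled to receptor genes. Of the 21 members that passed, Col1a2, Bgn, Fmod, Thbs2 and Lox did not pass without some library.

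2208L cells, set against T11 cells, had 19 members lower, where 17.5% of all genes were, and 7 higher, where 24.2% were (41.7% in either direction). 5 members did not pass, and the median was -1.48, against 0.01 for all genes. Scaled to total counts, 4 members were higher and 20 lower. Sparc (chr11:55394500-55423183) had 3.11, 2.80 and 3.09 CPM in 2208L and 466, 449 and 450 in T11, and 2208L was the line without Sparc above background, at 2.12 times the receptor genes. Col6a3 had 12, 14.6 and 13.9 CPM in 2208L and 317, 313 and 345 in T11 (-4.42 ± 0.12, edgeR adjusted p = 5.23e-47). Thbs2, a thrombospondin that binds growth factors and proteases (chr17:14665500-14694235), had 8.00, 7.47 and 6.95 CPM in 2208L and 188, 186 and 181 in T11 (-4.45 ± 0.14, edgeR adjusted p = 2.51e-44). All 3 genes were thus near background in 2208L and well above it in T11.
Col5a2 had 6.22, 9.03 and 7.72 CPM in 2208L and 137, 135 and 145 in T11 (-4.03 ± 0.15, edgeR adjusted p = 2.89e-38). Within type I collagen Col1a2 fell by 6.34 log2, while Col1a1 had 9.77, 4.67 and 5.41 CPM in 2208L and 9.59, 9.62 and 15.8 in T11 and did not pass (-0.54 ± 0.27, edgeR adjusted p = 0.0968). Fbln2 (2.75 ± 0.10), Col12a1 (2.70 ± 0.13), Tnc (0.83 ± 0.13), Col18a1 (0.71 ± 0.13), Postn (0.53 ± 0.22), Col4a2 (0.36 ± 0.11) and Col7a1 (0.30 ± 0.11) were higher, Postn and Col7a1 not without some library, nor was Col5a3 lower without some library.

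AT3 cells, set against E0771 cells, had 15 members higher, where 19.5% of all genes were, 11 lower, where 26.3% were (45.8% in either direction), and 5 that did not pass. The median was 0.33, against 0.07. Of the 15 members above background in 1 or both lines, 5 were higher, 7 were lower and 3 did not pass. The median of these members was -0.06. Scaled to receptor genes, 6 members were higher and 11 lower. Thbs2 had 330, 303 and 301 CPM in AT3 and 14.5, 9.82 and 12.6 in E0771, a log2 difference of 4.55 ± 0.12 (edgeR adjusted p = 1.31e-48). Dcn, a proteoglycan that binds type I fibrils (chr10:97479609-97518143), had 94.9, 98.5 and 96.5 CPM in AT3 and 4.11, 1.37 and 4.03 in E0771. The libraries of the lines did not overlap for either gene. Col3a1 was higher in AT3 by 3.12 ± 0.09 and Fbn1 by 2.77 ± 0.12 (edgeR adjusted p = 1.55e-44 and 8.26e-33).
The largest fall was in Fbln2 (chr6:91212455-91272540), with 17.4, 12.9 and 10.1 CPM in AT3 and 218, 218 and 210 in E0771 (-4.16 ± 0.13, edgeR adjusted p = 6.93e-44). Loxl2, Col5a3, Sparc, Col6a2, Col6a1, Col7a1 and Col5a1 fell by 2.28, 2.08, 1.78, 1.58, 1.46, 1.22 and 0.96 log2. Col6a3 passed at 0.33 ± 0.14 (edgeR adjusted p = 0.0406) and was -0.09 when scaled to receptor genes. Of the 26 members that passed, Col6a3, Bgn, Fmod, Postn, Tnc and Eln did not pass without some library. The type IV chains did not pass, Col4a1 at -0.06 ± 0.09 and Col4a2 at 0.22 ± 0.10.

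**Figure D3:**
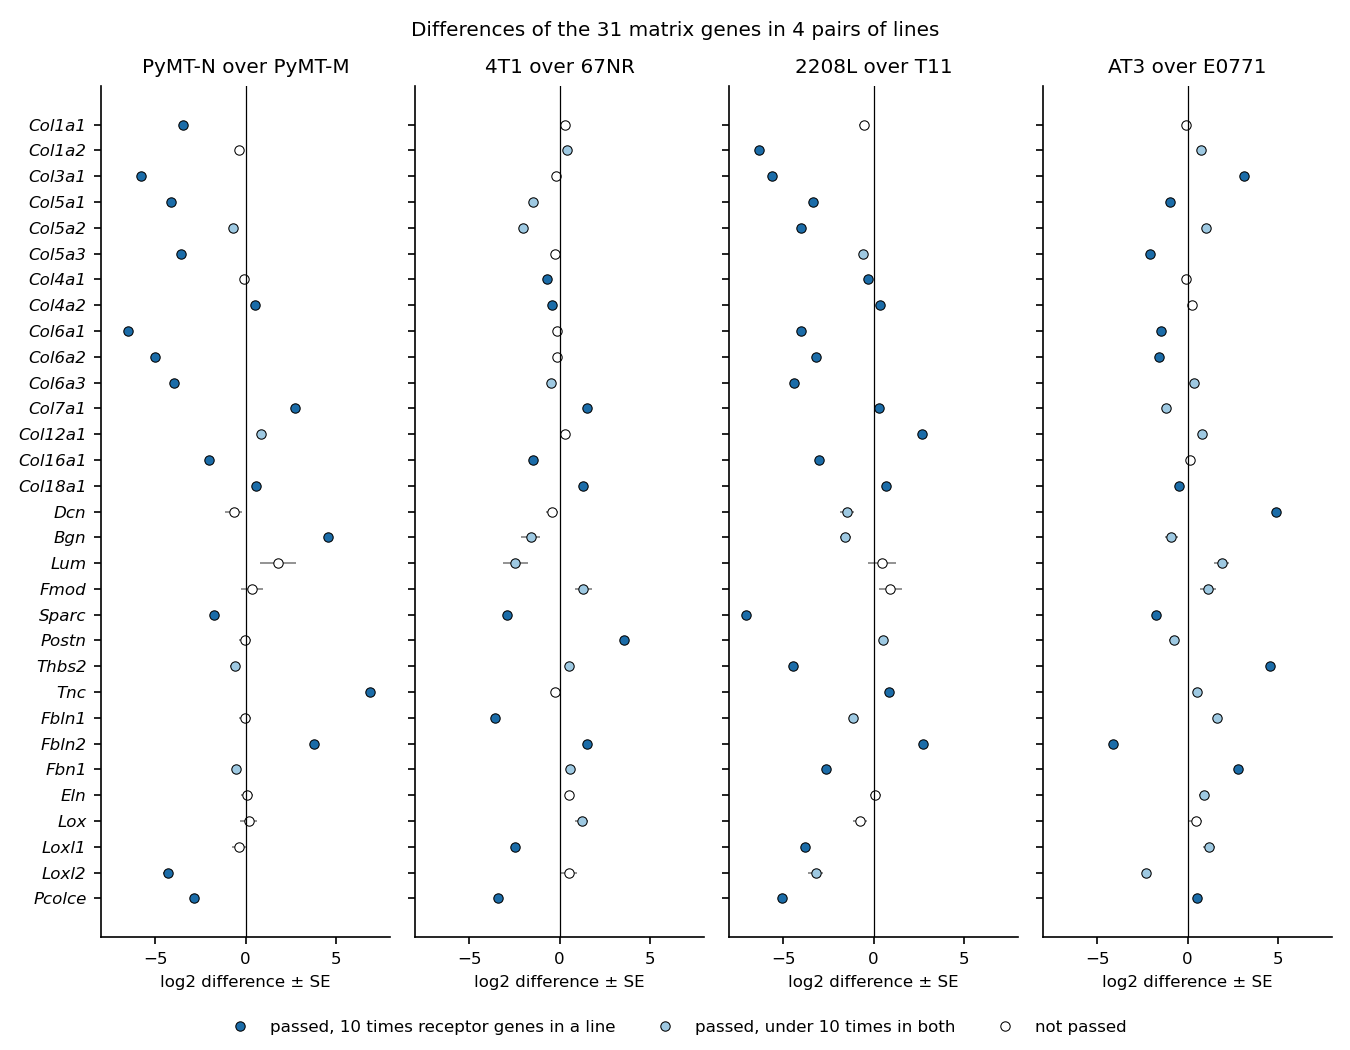
Log2 differences of the 31 members (rows) in the 4 pairs of lines (panels), with bars of 1 SE. Dark points passed the test with the member above background in 1 or both lines, light points passed with it below background in both, and open points did not pass. Fbln2 lies right of 0 in 3 panels and at -4.16 in AT3 over E0771, and Col3a1 lies at -5.77 and -5.63 in 2 panels and at 3.12 in AT3 over E0771.

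29 members, all but Fmod and Eln, had differences that were not equal in the 4 pairs (edgeR F test), where 68.7% of all genes did. Averaged over the pairs, Epi lines had 10 members higher and 16 lower than Mes lines, where 22.8% and 25.1% of all genes were (47.9% in either direction), with a median of -0.29, against 0.01. Sparc (-3.37 ± 0.06), Col6a1 (-3.05 ± 0.07), Pcolce (-2.70 ± 0.07), Col5a1 (-2.49 ± 0.06), Col6a2 (-2.49 ± 0.09) and Loxl2 (-2.31 ± 0.19) led the lower side. Of these, Sparc and Col5a1 fell in all 4 pairs. Tnc (1.99 ± 0.07), Col12a1 (1.16 ± 0.08) and Fbln2 (0.98 ± 0.06) led the higher side, where Tnc and Col12a1 did not pass in 4T1 over 67NR and Fbln2 fell in AT3 over E0771. These SEs measure the spread between libraries and not that between the pairs. Tnc, for example, had 2020, 2455 and 2357 CPM in PyMT-N and at most 80.6 CPM in any library of the other lines.

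E0771 and PyMT-M are the Mes lines on the C57BL/6 background. 0 members were higher in E0771 and 5 lower, where 2.74% and 4.41% of all genes were (7.16% in either direction), and 26 did not pass. Scaled to total counts, 3 were higher and 4 lower, and with TMM factors from genes of at least 10 CPM, 2 and 5. Without E0771 library 1 there were 3 lower, and without PyMT-M library 3 there were 1 higher and 7 lower. The falls were in Col6a3, with 26.9, 20.8 and 18.9 CPM in E0771 and 136, 135 and 114 in PyMT-M (-2.67 ± 0.12, edgeR adjusted p = 3.21e-31), and Col1a1, with 7.59, 8.84 and 9.33 in E0771 and 55.4, 56.6 and 40.4 in PyMT-M (-2.67 ± 0.19, edgeR adjusted p = 1.62e-19). For both genes the libraries lay well apart. Col3a1 (-1.06 ± 0.09), Loxl2 (-0.74 ± 0.19) and Col4a1 (-0.33 ± 0.09) were the other members that fell, Loxl2 and Col4a1 not without some library. The partners Col6a1 (-0.10 ± 0.08), Col6a2 (-0.15 ± 0.10) and Col1a2 (0.15 ± 0.19) did not pass.

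Other genes that make, hold or bind collagen were counted from 4 lists, with these numbers tested: 22 of collagen synthesis and secretion, 11 of collagen receptors and uptake, 19 of basement membrane proteins and 25 of other matrix proteins. No list was tested as a list. Of all genes, 24.8% were higher and 19.9% lower in PyMT-N over PyMT-M, 19.9% and 27.3% in 4T1 over 67NR, 24.2% and 17.5% in 2208L over T11, and 19.5% and 26.3% in AT3 over E0771, and their medians were -0.05, 0.03, 0.01 and 0.07 log2 in that order of pairs. Of the synthesis genes, 4 were higher and 11 lower in PyMT-N over PyMT-M, 8 and 9 in 4T1 over 67NR, 6 and 9 in 2208L over T11, and 6 and 9 in AT3 over E0771. Their medians were -0.39, -0.07, -0.28 and -0.02 log2. Serpinh1, the chaperone of procollagen, averaged 249.7 ± 7.6 CPM in PyMT-N, against 802 ± 39 CPM in PyMT-M (-1.37 ± 0.08), and 322 ± 3.46 in AT3 and 791 ± 46 in E0771 (-1.43 ± 0.08). Its mean was also lower in 2208L (54.5 ± 4.03 CPM) than in T11 (217.6 ± 7.83). The other pair went the opposite way, with 180.4 ± 9.18 CPM in 4T1 and 93.2 ± 9.67 in 67NR. Of the basement membrane genes, 9 were higher and 4 lower in PyMT-N over PyMT-M, 10 and 6 in 4T1 over 67NR, 8 and 6 in 2208L over T11, and 12 and 2 in AT3 over E0771, with medians of 0.46, 0.55, 0.27 and 0.53 log2. Lama3 and Lamb3, laminin chains of epithelial basement membranes, were higher in PyMT-N by 4.70 ± 0.12 and 4.37 ± 0.15. In 2208L they were higher by 2.29 ± 0.13 and 5.13 ± 0.15. In AT3 Lama3 (0.33 ± 0.15) and Lamb3 (0.12 ± 0.20) did not pass, and Lamb1, another laminin chain, had 359.6 ± 19.3 CPM in AT3 and 42.4 ± 8.52 in E0771 (2.96 ± 0.11).
Among receptors, Ddr2, a kinase that binds fibrillar collagen, fell in PyMT-N by 3.08, in 4T1 by 2.31 and in 2208L by 4.49 log2, and did not pass in AT3 (0.15 ± 0.08). Itga2, the integrin subunit for collagen, was higher in PyMT-N by 6.11 ± 0.16, in 4T1 by 2.06 ± 0.14, in 2208L by 2.58 ± 0.19 and in AT3 by 0.94 ± 0.22. Mrc2, an uptake receptor for collagen, fell in 4T1 by 3.36 and in 2208L by 4.09 log2 and was higher in AT3 by 2.33 ± 0.18. The receptors list as a whole had 4 higher and 3 lower in PyMT-N over PyMT-M, 3 and 5 in 4T1 over 67NR, 4 and 2 in 2208L over T11, and 4 and 4 in AT3 over E0771, with medians of 0.0049, -0.23, -0.03 and 0.15 log2. Of the other matrix proteins, 4 were higher and 5 lower, 5 and 7, 5 and 12, and 12 and 4 in the same order of pairs, with medians of -0.28, 0.12, -0.29 and 0.54 log2. Col8a1, a short-chain collagen, was higher in PyMT-N by 7.13 ± 0.16, in 2208L by 3.07 ± 0.10 and in AT3 by 3.75 ± 0.19.

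In the sorted cells, as in other bulk samples, fewer cells of a type and less RNA per cell cannot be told apart. Summed over the 31 members, levels were 1185 ± 473 CPM in 2208L macrophages and 352 ± 119 in T11 macrophages, and 988 ± 297 in AT3 and 2134 ± 225 in E0771 macrophages. In neutrophils the sums were 1959.9 ± 46.4 CPM in 2208L and 2992 ± 10.2 in T11, and 2272 ± 517 in AT3 and 3409.6 ± 167 in E0771. Over what the same transcript length would hold at the receptor genes' density, these sums were 4.72, 2.36, 8.34 and 6.96 times in 2208L, T11, AT3 and E0771 macrophages and 3.69, 1.89, 2.16 and 3.99 times in their neutrophils, against 7.69 to 79.8 times in the lines. 25 of 30 members tested differed between tumours in macrophages (edgeR F test), where 36.1% of 14715 genes did, and 19 of 31 in neutrophils, where 30.8% of 18158 did. 16 members were above background in macrophages of at least 1 tumour: 12 in AT3, 7 in E0771, 3 in 2208L (Col18a1, Sparc and Tnc) and 0 in T11. In neutrophils 4 members were, Col18a1 and Tnc in 2208L and Col6a1 and Sparc in E0771. T11, the line with 17 members above background, thus had 0 in either sort. The mark stood at a much higher CPM in T11 neutrophils, where receptor genes took 12933 to 18795 CPM. They took 975 to 1749 CPM in T11 macrophages and 1036 to 1348 in the T11 line. The 0 in T11 neutrophils is therefore not comparable with the count in the line. Sparc, for example, was 11.7 ± 1.74 CPM in T11 macrophages and 31.4 ± 7.03 in T11 neutrophils, against 455 ± 9.23 in the T11 line. Among macrophages the mark also differed in CPM, with receptor genes averaging 1118 CPM in AT3 and 2912 CPM in E0771. Col6a3 was above the mark in AT3 macrophages at 77.3, 78.0 and 169.7 CPM. In E0771 macrophages it was below the mark at 176.9, 213.7 and 162.7 CPM. The 12 members in AT3 and 7 in E0771 therefore do not rank these groups by CPM.

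Markers of other cells were summed as CPM, and the sums were not set against background. Receptor genes averaged 2487, 1397, 1118 and 2912 CPM in 2208L, T11, AT3 and E0771 macrophages, so low sums can differ with background alone. Epithelial markers summed to 359 to 619 CPM in 2208L macrophages, 6 of 8 above background, against 17.2 to 30.7 in T11 macrophages, 0 of 8, and to 109 to 164 in AT3 and 74.9 to 123 in E0771 macrophages, 1 and 0 of 8. Fibroblast markers summed to 595 to 738, 574 to 692, 485 to 720 and 365 to 446 CPM in 2208L, T11, AT3 and E0771 macrophages, with 4, 3, 4 and 2 of 10 above background. Of these Gsn was above background in all 8 lines too, and Dpt in AT3 macrophages and the AT3 line alone. Endothelial markers summed to 139 to 220, 52.3 to 88.8, 46.7 to 61.1 and 268 to 324 CPM in the same order, at most 1 of 8 above background, with Emcn and Plvap at 0 in T11 and Cldn5 at 0 in AT3 macrophages. Pericyte and smooth muscle markers summed to 107 to 221, 532 to 669, 143 to 208 and 207 to 355 CPM, with 0, 1, 1 and 1 of 8 above background. T and NK cell markers summed to 95.6 to 161, 15 to 23.5, 10.1 to 23 and 107 to 133 CPM, with 2, 0, 0 and 1 of 7 above background. Macrophage markers were above background, 8 of 8, in macrophages of every tumour. Neutrophil libraries held 1034 to 3978 CPM of them on group average, with 4 to 6 of 8 above background. Neutrophil markers averaged 4466 to 18541 CPM in neutrophils and 59.1 to 333 in macrophages. In neutrophils epithelial markers summed to 580 to 665 CPM in 2208L, 223 to 260 in T11, 97.1 to 166 in AT3 and 170 to 178 in E0771. Of these 8 markers, 2 were above background in 2208L neutrophils (Krt8 and Krt18) and 0 in those of T11, AT3 and E0771. Receptor genes averaged 5215, 15292, 10308 and 8178.5 CPM in 2208L, T11, AT3 and E0771 neutrophils. The part of any of these cells in the values of the members was not tested.

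**Figure D4:**
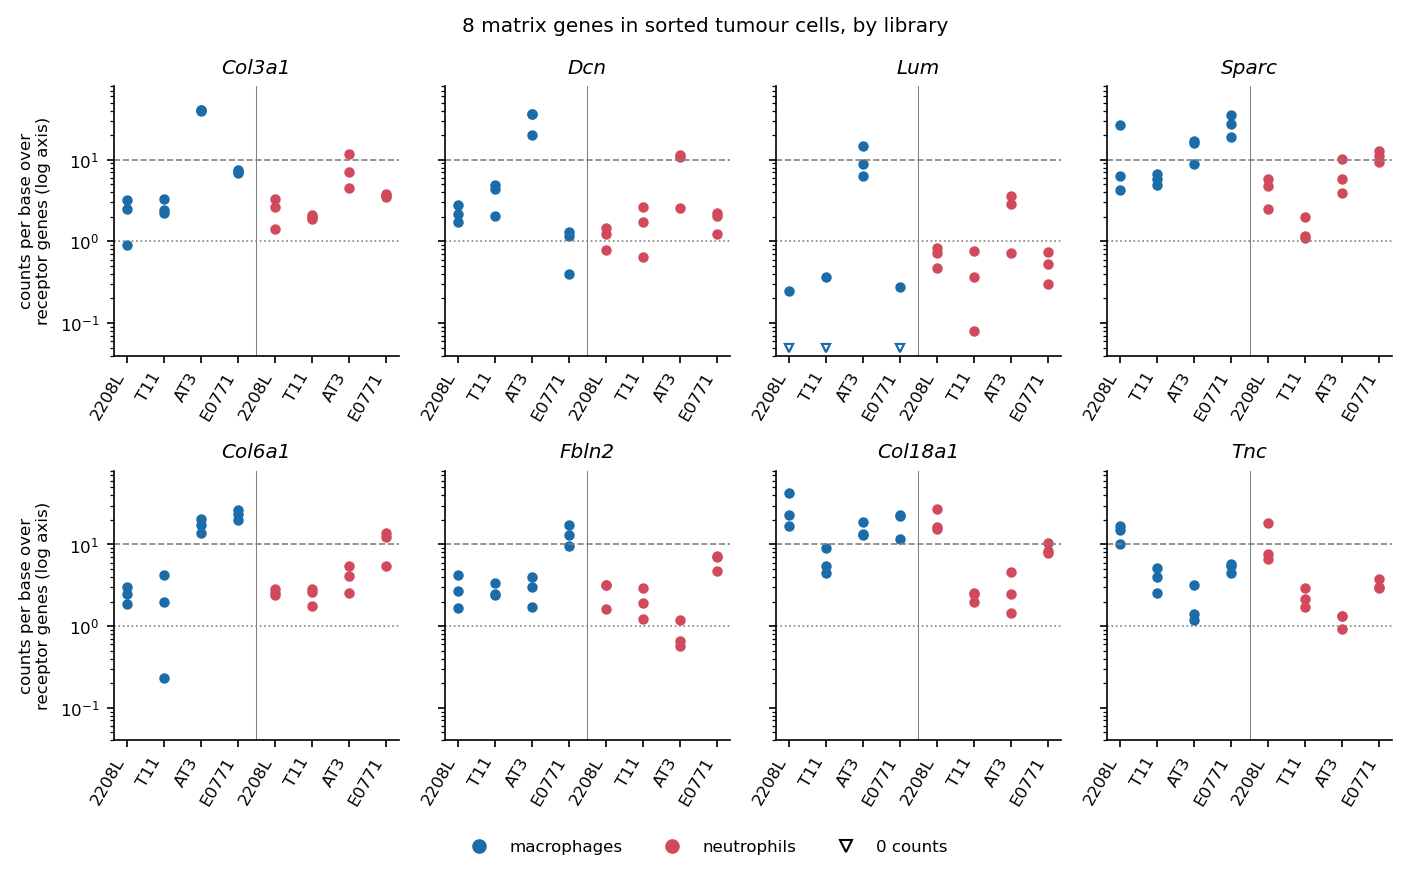
Levels of 8 members in sorted macrophages (left of the line in each panel) and neutrophils (right), by tumour, as counts per base of transcript over receptor genes (log axis). Each point is 1 library, open triangles are libraries with 0 counts, the dashed line is 10 times the receptor genes and the dotted line their level. Col3a1 and Dcn lie above the dashed line in all 3 AT3 macrophage libraries and below it in every macrophage library of the other tumours.

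Macrophages from AT3 tumours, set against those from E0771 tumours, had more Col3a1, Dcn and Lum and less of many other members. 3 members were higher and 13 lower, where 12.3% and 7.56% of 14715 genes were (19.8% in either direction), and 14 did not pass. Lox was not tested, having too few counts. The median was -1.10, against 0.08 for all genes. Without E0771 library 1, labelled BALB/C, 3 were higher and 11 lower, and without AT3 library 1, 3 and 6. Scaled to receptor genes, 5 were higher and 2 lower, with a shift of the median of all genes to 0.86.
Col3a1 had 160, 125 and 196 CPM in AT3 macrophages and 77.6, 84.9 and 64.9 in E0771 macrophages (1.70 ± 0.36, edgeR adjusted p = 0.00121). Dcn had 25.5, 35.6 and 57.8 CPM in AT3 and 4.08, 1.46 and 3.56 in E0771 macrophages (4.22 ± 0.66, edgeR adjusted p = 1.82e-05). Lum, a proteoglycan of fibrils, had 11.0, 12.1 and 31.9 CPM in AT3 macrophages and 1.36, 0 and 0 in E0771 macrophages, where its summed count was 1 (edgeR adjusted p = 0.00111). For these 3 genes no E0771 library reached the lowest AT3 library. Lum was below the background mark in both, at 9.91 times the receptor genes in AT3 macrophages.
Fbln2 had 13.6, 8.07 and 7.41 CPM in AT3 macrophages and 92.6, 129 and 128 in E0771 macrophages (-3.00 ± 0.45, edgeR adjusted p = 9.7e-06). Loxl2, Col1a2, Loxl1 and Tnc fell by 3.25, 2.47, 2.31 and 2.25 log2, each below the background mark in both groups. Col5a3, Sparc, Col1a1, Col4a1, Col6a1, Col18a1, Col4a2 and Col6a2 fell by 1.77, 1.73, 1.49, 1.30, 1.18, 1.10, 1.10 and 1.03 log2, of which Col1a1 and Col4a2 were also below the mark in both. Of the 16, Col1a1, Col4a2, Col6a1, Col6a2, Col18a1, Loxl1 and Loxl2 did not pass without some library.

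Macrophages from 2208L tumours, set against those from T11 tumours, had 11 members higher and 0 lower, where 7.11% and 8.04% of all genes were (15.1% in either direction, edgeR), and 19 did not pass. The median was 1.14, against 0.01. Without T11 library 2, and likewise without 2208L library 3, 6 were higher, and scaled to receptor genes 4 were. Col18a1 had 163, 169 and 244 CPM in 2208L macrophages and 31.4, 29.1 and 21.7 in T11 macrophages (2.61 ± 0.31, edgeR adjusted p = 6.52e-08). Tnc had 78.5, 142 and 246 CPM in 2208L and 41.9, 17.6 and 17.2 in T11 macrophages (2.37 ± 0.38, edgeR adjusted p = 1.31e-05). Col4a1 had 42.6, 56.9 and 124 CPM in 2208L and 10.5, 8.54 and 12.7 in T11 macrophages (2.59 ± 0.37, edgeR adjusted p = 2.27e-06). No T11 library reached the lowest 2208L library for these genes.
Col4a2 (2.34 ± 0.37), Postn (edgeR adjusted p = 0.00656), Col16a1 (2.10 ± 0.47), Bgn (1.99 ± 0.66), Thbs2 (1.84 ± 0.51), Col1a1 (1.54 ± 0.40), Col6a2 (1.44 ± 0.46) and Sparc (1.36 ± 0.44) also passed, all but Sparc below the background mark in both groups. Sparc was 26.6 times the receptor genes in 2208L library 1, and 6.32 and 4.25 times in libraries 2 and 3. Without library 1 its difference was 0.78 (edgeR adjusted p = 0.246). Of the 11 members that passed, Col1a1, Col6a2, Bgn, Sparc, Postn and Thbs2 did not pass without some library.

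Members that passed both in lines and in sorted cells were compared for direction. For AT3 and E0771, 26 members passed in lines and 16 in macrophages, 13 in both, of which 10 had the same direction: Col3a1, Dcn and Lum higher in AT3, and Col5a3, Col6a1, Col6a2, Col18a1, Sparc, Fbln2 and Loxl2 lower. Col1a2, Tnc and Loxl1 were higher in AT3 cells and lower in AT3 macrophages. These members were below the background mark in both lines and both macrophage groups, as were Lum and Loxl2 among the 10. For 2208L and T11, 26 passed in lines and 11 in macrophages, 10 in both, of which 4 had the same direction, Col4a2, Col18a1, Postn and Tnc, and 6 the opposite one, Col4a1, Col6a2, Col16a1, Bgn, Sparc and Thbs2. The 6 were lower in 2208L cells and higher in 2208L macrophages. Of the 6, all but Sparc were below the background mark in both macrophage groups, and Bgn was below it in both lines too. Of the 4, Col4a2 and Postn were below it in both macrophage groups. In neutrophils of 2208L and T11 tumours 6 members passed, all 6 passed in lines too, and 6 had the same direction. In neutrophils of AT3 and E0771 tumours 9 passed, all 9 in lines too, of which 8 had the same direction and 1, Fbln1, was higher in AT3 cells and lower in AT3 neutrophils. The share of all genes with the same direction is not given here, so these counts cannot be set against it. As 26 of the 31 members passed in lines for each pair, most members that passed in sorted cells could be among them. The calls in 2208L over T11 neutrophils changed with the scaling, as given below. The differences between lines and sorted cells were not tested.

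**Figure D5:**
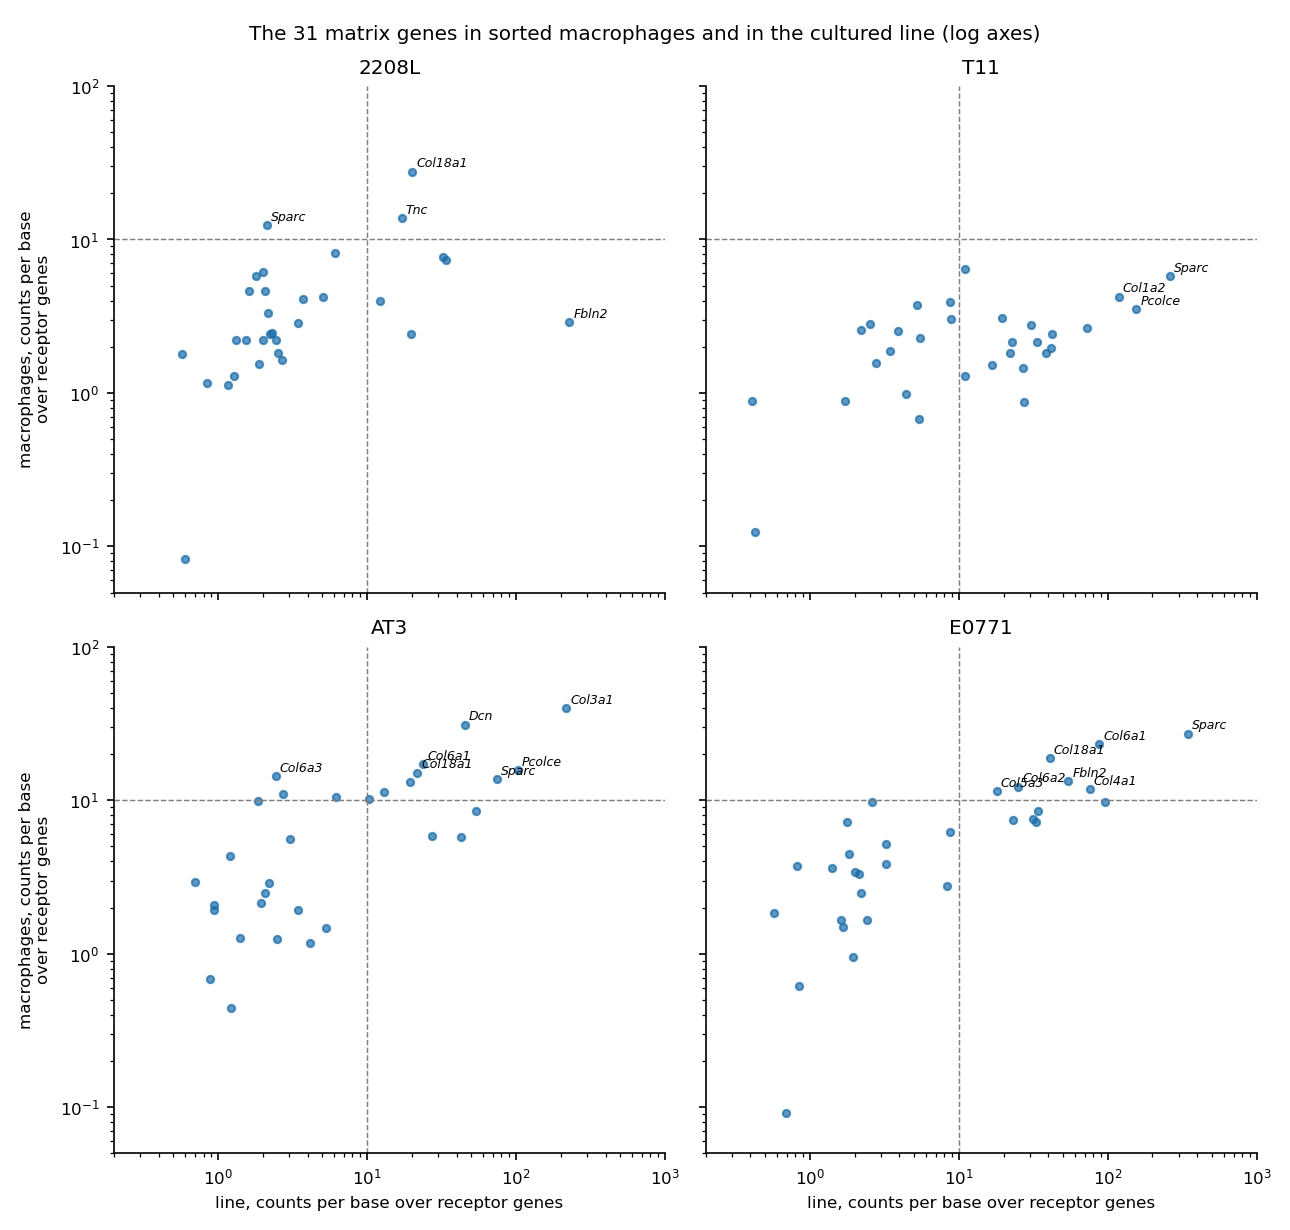
Each member's level in sorted macrophages (vertical) against its level in the cultured line of the same name (horizontal), both as counts per base over receptor genes on log axes, 1 panel per tumour, with dashed lines at 10. Points are means of 3 libraries. Of the T11 members 17 lie right of the vertical line and 0 above the horizontal one. In 2208L Sparc lies above the horizontal line and left of the vertical one.

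With TMM factors neutrophils carried fewer called differences than macrophages. Scaled to receptor genes they carried more, 7 against 4 in 2208L over T11 and 15 against 7 in AT3 over E0771. When scaled to total counts, the numbers were 20 against 13 and 15 against 19 in the same order. AT3 neutrophils, set against E0771 neutrophils, had 3 members higher, Dcn, Lum and Col3a1, and 6 lower, where 2.13% and 1.81% of 18158 genes were (3.93% in either direction), and 22 did not pass. Without E0771 library 1, labelled BALB/C, 3 were higher and 4 lower. Without E0771 library 2 or 3 there were 2 and 3, and without AT3 library 1, 3 and 11. The split was 3 and 12 when scaled to total counts and 2 and 13 when scaled to receptor genes. Dcn had 36.4, 77.5 and 157 CPM in AT3 and 21.5, 16.4 and 12.8 in E0771 neutrophils (2.69 ± 0.46, edgeR adjusted p = 0.000648). Col3a1 had 204, 266 and 310 CPM in AT3 and 112, 95.6 and 115 in E0771 neutrophils (1.57 ± 0.32, edgeR adjusted p = 0.00407). Fbln2 had 45.9, 11.1 and 24.3 CPM in AT3 and 183, 158 and 134 in E0771 neutrophils (-2.42 ± 0.34, edgeR adjusted p = 3.69e-05).
No libraries overlapped for these genes, and all 9 members that passed were below the background mark in both groups. Lum (2.64 ± 0.59) was higher, and Loxl2, Fbln1, Col6a2, Col18a1 and Col7a1 fell by 2.05, 1.71, 1.45, 1.16 and 1.07 log2. Lum, Loxl2, Fbln1, Col18a1 and Col7a1 did not pass without some library. In 2208L over T11 neutrophils 3 members were higher and 3 lower, where 20.8% and 10.1% of all genes were (30.9% in either direction). Scaled to total counts 2 were higher and 18 lower, and scaled to receptor genes 7 and 0, where the median of all genes was -0.85 and 0.71, against -0.14 with TMM factors. With the 6 libraries of these groups alone there were 4 and 6. Without T11 library 1, T11 library 3 or 2208L library 3, there were 2 and 1. Col18a1 had 320, 342 and 296 CPM in 2208L and 108, 122 and 116 in T11 neutrophils (2.19 ± 0.35, edgeR adjusted p = 1.64e-05), with no overlap. Tnc (1.35 ± 0.31) and Postn (1.15 ± 0.39) were higher, and Fbln1, Fbn1 and Col5a1 fell by 1.05, 0.96 and 0.90 log2. Postn, Fbln1, Fbn1 and Col5a1 did not pass without some library.

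Set against neutrophils of the same tumours, macrophages had 0 members higher and 27 lower with TMM factors, where 30.7% and 45.3% of 20364 genes were (76.0% in either direction), and 20 higher and 0 lower when scaled to receptor genes. The members' median was -0.85, against -0.52 for all genes. Col18a1 (-0.22 ± 0.15), Sparc (-0.16 ± 0.19), Fmod (-0.54 ± 0.41) and Pcolce (0.03 ± 0.26) did not pass with TMM factors. Of the other 27 members, 24 had the opposite sign when scaled to receptor genes, while Lum (-1.19), Lox (-0.21) and Fbln1 (-0.09) kept a negative sign without passing. Dcn did not pass with TMM factors without some library. The receptor genes themselves took 864 to 3235 CPM in macrophages and 3836 to 18795 in neutrophils. The median of all genes was -1.28 when scaled to total counts and 1.01 when scaled to receptor genes. For 17 members the difference between the sorts was not equal in the 4 tumours (edgeR F test), where that held for 27.5% of all genes. Col4a1 (edgeR adjusted p = 1.17e-05) and Col16a1 (edgeR adjusted p = 0.000231) were the clearest. Without T11 macrophage library 2 there were 11 such members. Col4a1 averaged 10.6 ± 2.06 CPM in T11 macrophages and 163 ± 23.1 in T11 neutrophils, and 145 ± 13.3 in E0771 macrophages and 184 ± 22.1 in E0771 neutrophils. Both T11 sorts were below the background mark for it. Over the receptor genes per base, Col4a1 was 1.40, 2.05 and 2.02 times in T11 macrophage libraries and 3.13, 1.70 and 2.97 times in T11 neutrophil libraries.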

How the data were processed

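Total RNA was sequenced from 24 line, 12 macrophage and 12 neutrophil libraries. The submitters' processing notes name bcl2fastq 2.17, STAR 2.4.2a and mm10; the counting tool, annotation and use of strand are not given in the sources used here. The authors deposited raw read counts per gene symbol. Column names gave each library its group, and PyMT-N was matched to its columns by elimination. Tests used edgeR 4.0.16 in R 4.3.3 (quasi-likelihood, TMM factors, filterByExpr with a minimum count of 10 and a minimum total of 15), fitted separately to lines, macrophages, neutrophils and all sorted libraries, with Benjamini-Hochberg adjustment over all genes tested and a threshold of 0.05. Steps were tested on simulated data. Transcript lengths came from GENCODE M21, in which 22750 symbols matched directly, 920 by synonym and 384 not. Members named were those with the widest range of mean level and up to 10 passing per direction in a comparison; a gene of the other lists that is followed across pairs was chosen after its values were seen. Members and lists were chosen with earlier results of these data known. Alternatives were other scalings, DESeq2 1.42.0, no filter, fewer groups, a replicate block and leaving out each library.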

Additional observations from a re-analysis of the deposited data

Results flagged for a closer look

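For 29 members the difference between the lines of a pair was not equal in the 4 pairs (edgeR F test), where that held for 68.7% of all genes. Col3a1 (edgeR adjusted p = 2.93e-61), Fbln2 (edgeR adjusted p = 1.03e-56), Thbs2 (edgeR adjusted p = 1.35e-55) and Fbn1 (edgeR adjusted p = 3.11e-41) changed in opposite directions between pairs. Col3a1 was lower in PyMT-N and 2208L and higher in AT3, Thbs2 and Fbn1 were each lower in PyMT-N and 2208L and higher in 4T1 and AT3, and Fbln2 was higher in PyMT-N, 4T1 and 2208L and lower in AT3. Thbs2 in PyMT-N and in 4T1, and Fbn1 in PyMT-N, did not pass without some library. For 17 members the difference between macrophages and neutrophils was not equal in the 4 tumours, where that held for 27.5% of all genes.

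Sparc was lower in 2208L cells than in T11 cells, at -7.05 log2, and higher in 2208L macrophages than in T11 macrophages, at 1.36 log2. The difference between these contrasts was not tested. The call in macrophages was lost without 2208L library 1 or without any 1 of the T11 libraries.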

How the results depend on the processing

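The count of members that passed moved by over 1.5 times in these cases. Scaled to receptor genes, an alternative chosen after seeing the data, it was 17 in AT3 over E0771 lines, 3 in E0771 over PyMT-M, 4 in 2208L over T11 macrophages, 7 in AT3 over E0771 macrophages, 15 in AT3 over E0771 neutrophils and 10 for the macrophage difference by tumour. Scaled to total counts it was 20 in 2208L over T11 neutrophils, 15 in AT3 over E0771 neutrophils and 29 for the difference by tumour, which was 26 with DESeq2. With only the compared groups it was 10 in 2208L over T11 neutrophils. Leaving out 1 library gave 3 to 8 in E0771 over PyMT-M, 6 to 15 in 2208L over T11 macrophages, 9 to 15 in AT3 over E0771 macrophages, 3 to 5 and 5 to 14 in the neutrophil contrasts of 2208L over T11 and AT3 over E0771, and 11 to 22 for the difference by tumour. Scaling to receptor genes reversed Col1a2 in 4T1 over 67NR (-0.0022), Col6a3 in AT3 over E0771 (-0.094) and, in macrophages over neutrophils, Col1a1 (0.92), Col1a2 (0.37), Col3a1 (0.92), Col5a1 (0.80), Col5a2 (0.18), Col5a3 (0.54), Col4a1 (0.73), Col4a2 (0.61), Col6a1 (0.76), Col6a2 (0.85), Col6a3 (1.01), Col7a1 (0.96), Col12a1 (0.29), Col16a1 (0.63), Dcn (0.78), Bgn (0.71), Postn (0.35), Thbs2 (0.52), Tnc (0.62), Fbln2 (0.87), Fbn1 (0.68), Eln (0.16), Loxl1 (0.52) and Loxl2 (0.37). The cause was not tested. Same-numbered libraries did not deviate together (median correlation 0.0024 in lines, -0.0081 in macrophages, -0.0046 in neutrophils and -0.0047 between the macrophage and neutrophil libraries of a tumour, whose column names also share numbers, with no source calling them 1 animal). The replicate block, an alternative only, left 27 members in macrophages over neutrophils and 17 for the difference by tumour, as without it, and gave 20 members in PyMT-N over PyMT-M, 15 in AT3 over E0771 macrophages, 7 in AT3 over E0771 neutrophils and 18 that differed among neutrophils. Rn45s left 470712 to 1185233 counts in neutrophil libraries, which limits low members there.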
